A study of Mus musculus with 3 samples.

Results

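The genes described here are 8 transcripts of platelets and of megakaryocytes, the marrow cells that shed platelets: Pf4, Itga2b, Itgb3, Gp1bb, Gp9, Sdpr, Vwf and Selp. They were chosen by name as genes of these cells, and 8 of 8 are among the 14721 genes of the deposited count table. Their levels were taken in each library, in stem cell-like cells and in megakaryocyte-like cells.

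The study sequenced single LSK cells of mouse bone marrow, cells sorted for lack of lineage markers and presence of Sca-1 and Kit, among them stem cells and multipotent progenitors. By its title it asks whether SPOP, the substrate receptor of a ubiquitin ligase, restrains emergency blood formation through MyD88, which relays signals from innate immune receptors. There were 3 libraries, 1 per genotype, all from bone marrow LSK cells: WT is Spop(+/+) Myd88 (+/+), KO is Spop(D/D) Myd88(+/+) and DKO is Spop(D/D) Myd88(-/-). What drives the Spop deletion, the age of the mice and how many were pooled are not given in the sources used here. Since each genotype has 1 library, no replicate error is known and no test between genotypes was made. Every interval below is a 95% interval that covers counting error only.

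Platelets stop bleeding through a few adhesion systems. The integrin formed by the Itga2b and Itgb3 products binds fibrinogen, the complex that contains the Gp1bb and Gp9 products binds von Willebrand factor (the Vwf product), and granules release the chemokine encoded by Pf4 and carry P-selectin, the product of Selp, to the surface. Itga2b is transcribed early in the megakaryocyte lineage, Pf4 rises as it matures, and some stem cells carry low levels of such transcripts.

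The WT library held 8147 cells, the KO library 4920 and the DKO library 8184, with medians of 9245, 17319 and 12404.5 UMIs (unique molecular identifiers, each 1 captured molecule) per cell. Library totals ran from 85700749 to 109920419 UMIs. Between 46 and 83 cell barcodes were shared by any pair of libraries and 0 by all 3. Myd88 stood at 13.7 CPM (UMIs per 1000000 UMIs of the library or class) in WT against 25.8 in KO, with 4.47 in DKO. Spop, at 63.1 to 77.1 CPM, does not check its deletion because reads come from the 3′ end and the deleted part is not given. Xist stood at 1537 CPM in DKO and at or below 0.187 in the others, and Ddx3y at 0 in DKO, so sex and genotype cannot be told apart in either DKO comparison.

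Cells were clustered without the 8 genes. The cluster called megakaryocyte-like has Apoe, Tuba8, Gp5 and Slc14a1 among its leading genes and 6 megakaryocyte markers among its top 15 genes. It held 482 WT, 444 KO and 997 DKO cells, or 5.92% (5.41 to 6.45), 9.02% (8.24 to 9.86) and 12.2% (11.5 to 12.9) of the libraries. The stem cell-like cluster, led by Procr, Tgm2 and Socs2, held 857 WT, 86 KO and 433 DKO cells (10.5%, 1.75% and 5.29%). By a rule set after the clusters were seen, 11 of the 18 clusters were left without a name. Those with 3 or more markers of a class among their top 15 genes are cluster 5 (0.147% of WT, 30.4% of KO, 0.122% of DKO cells), which has stem markers Ifitm1, Ly6a and Ifitm3, cluster 11 (8.81%, 1.24%, 2.52%), led by Ly6d and Dntt, and cluster 16 (0.552%, 4.67%, 2.80%), which mixes basophil-mast and erythroid markers. Cluster 3 (1.03%, 0.0813%, 18.2%) and cluster 12 (10.2%, 0.0813%, 1.32%) have 2 stem cell markers each, and cluster 8 (7.41%, 0.224%, 8.33%) has 2 monocyte-dendritic markers.

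Upstream sequence is shown for Pf4 and Sdpr, which were concentrated in megakaryocyte-like cells, and for Selp, most of whose UMIs lay outside those cells. RefSeq promoters on GRCm38.p6 were matched for 6 of the 8 genes, without Itgb3 and Vwf. Each line gives the 250 bases before the annotated start, 5′ to 3′ on the gene's strand, which is the plus strand for all 3. They lie at chr5:90772185-90772434, chr1:51288876-51289125 and chr1:164115014-164115263. Capitals mark GGAAG, a short core of the motif of ETS factors, or its reverse complement CTTCC.
Pf4: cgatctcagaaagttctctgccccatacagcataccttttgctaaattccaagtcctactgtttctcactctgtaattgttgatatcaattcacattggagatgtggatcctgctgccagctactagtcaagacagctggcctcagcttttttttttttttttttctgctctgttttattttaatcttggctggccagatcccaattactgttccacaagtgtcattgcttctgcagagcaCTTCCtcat
Sdpr: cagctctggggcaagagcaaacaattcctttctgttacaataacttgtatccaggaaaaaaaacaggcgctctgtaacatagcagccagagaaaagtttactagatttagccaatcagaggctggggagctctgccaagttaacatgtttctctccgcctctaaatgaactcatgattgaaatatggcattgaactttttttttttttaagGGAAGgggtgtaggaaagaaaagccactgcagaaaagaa
Selp: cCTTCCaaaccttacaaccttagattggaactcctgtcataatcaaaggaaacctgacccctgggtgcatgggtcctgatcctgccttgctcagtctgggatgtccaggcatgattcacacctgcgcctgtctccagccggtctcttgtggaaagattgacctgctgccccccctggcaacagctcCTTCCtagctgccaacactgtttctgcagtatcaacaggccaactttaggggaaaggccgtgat
GGAAG or its complement was found in 6 of the 6 matched windows, as in 63.6% of 27025 promoter windows of the same length, and its first base lay 9 bases before the start in Pf4 and 39 in Sdpr. GATAA, a core of the motif of GATA factors, was found on either strand in 1 of 6, that of Gp9, against 23.0% of all windows. The longer forms AGATAA and CAGGAAG, which contain these cores, were in 0 of 6 each, against 10.3% and 10.5%. These matches describe letters in a window, and neither binding nor regulation was measured.

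In whole libraries, Pf4 and Itga2b were higher in both mutants than in WT, and the other members ranged from nearly the same level to several-fold higher. Pf4 (chr5:90772435-90773383, GRCm38), the alpha-granule chemokine, stood at 48.5 CPM in WT (47.0 to 49.98), 179.7 in KO (177 to 182), with 157 in DKO (154 to 159). The integrin subunit gene Itga2b (chr11:102453297-102470122) stood at 19.7, 40.7 and 62.5 CPM. Its partner Itgb3 (chr11:104608000-104670476) stood at 9.58, 10.7 and 18.8. Pf4 was thus highest in KO, whereas both integrin subunits were highest in DKO.

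The 2 subunits of the von Willebrand factor receptor parted. Gp1bb (chr16:18620317-18622403) stood at 4.98 CPM in WT (4.52 to 5.48) against 27.4 in KO (26.4 to 28.5), with 14.4 in DKO (13.7 to 15.1). Gp9 (chr6:87778072-87779768) stood at 16.6, 16.9 and 41.1 CPM. Gp1bb was highest in KO, while Gp9 had nearly the same level in KO and WT (ratio 1.02, 0.948 to 1.09). Gp1bb overlaps Sept5 and Gm49601 on the same strand, so the assignment of its reads is uncertain.

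The ligand gene Vwf (chr6:125546774-125686679) stood at 2.58 CPM in WT against 3.35 in KO, with 4.89 in DKO. Selp (chr1:164115264-164150026) stood at 7.35, 10.6 and 19.6 CPM. Sdpr (chr1:51289126-51302960), now named Cavin2 and encoding a protein of caveolae, stood at 6.13, 7.03 and 11.4 CPM. Each of these was highest in DKO. Sdpr lies within the antisense gene 9330175M20Rik and the 3′ end of Selp under the opposite-strand Gm16548, and the strand setting of the counting is not given in the sources used here.

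Genes were counted as higher or lower from a ratio of 1.5-fold, provided that the 2 libraries averaged 20 CPM or more. Between KO and WT, 2 of the 8 members passed the level filter and both were higher (Pf4 3.71-fold, 3.58 to 3.83, and Itga2b 2.07-fold, 1.96 to 2.19), where 8.85% of 5141 genes were higher. Between DKO and WT, 3 passed and 3 were higher (Pf4 3.23-fold, Itga2b 3.18-fold, Gp9 2.47-fold), where 2.43% of 5307 genes were. Between DKO and KO, 4 passed. Of these, Gp9 (2.43-fold) and Itga2b (1.53-fold) were higher, where 13.4% of genes were, and Gp1bb was 1.91-fold lower (1.80 to 2.04), where 6.02% were. Each pair of these comparisons shares a library. With TMM, a scaling that moved all KO/WT log2 ratios by 0.15 and all DKO/KO ratios by -0.19, 1 member remained higher in DKO than in KO. Genes below the filter were also on the higher side in DKO over WT, from 1.87-fold for Sdpr to 2.88-fold for Gp1bb.

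**Figure D1:**
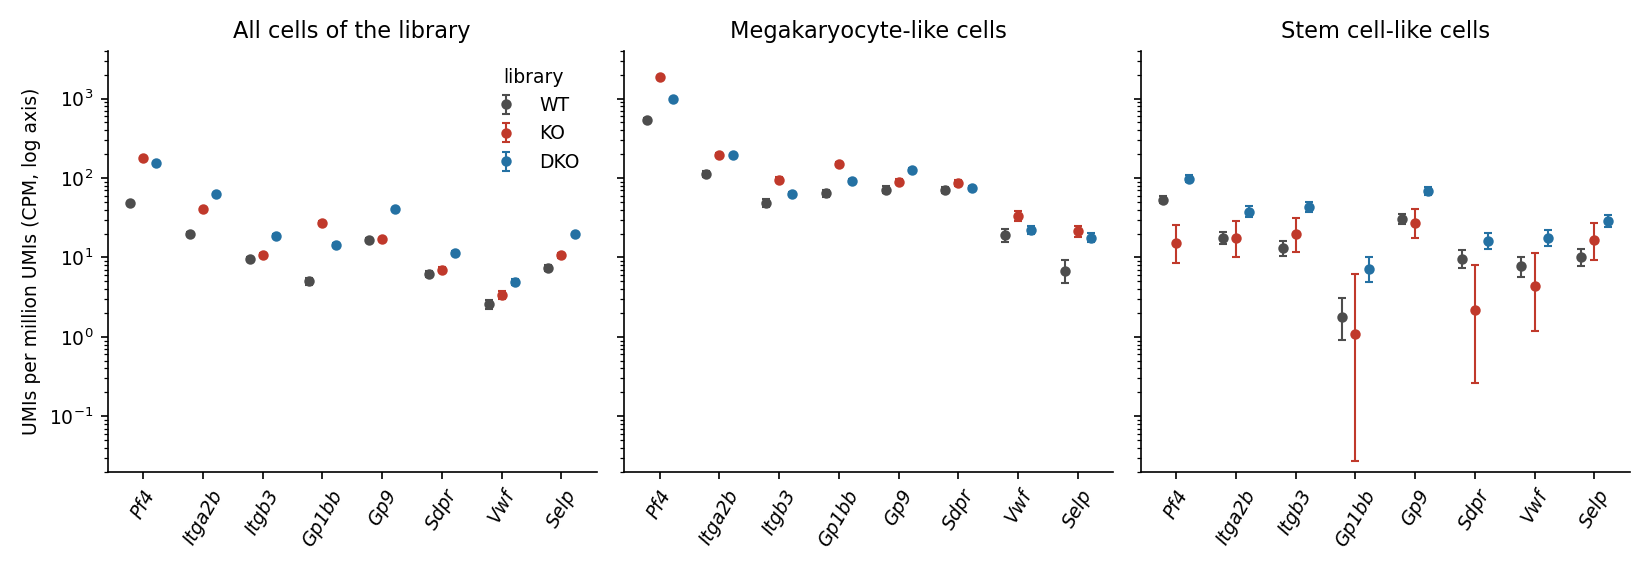
Level of each gene in CPM (log axis) in all cells, megakaryocyte-like cells and stem cell-like cells of the WT, KO and DKO libraries; points are single libraries and bars are 95% Poisson intervals. Pf4 in megakaryocyte-like cells stands at 543 in WT against 1887 in KO, with 983 in DKO, and the KO stem cell-like values have wide intervals because they rest on 86 cells.

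The UMIs of these genes came from different cells. Megakaryocyte-like cells held 74.0% of all Pf4 UMIs in WT, 68.3% in KO and 83.4% in DKO, with 6.61%, 6.51% and 13.3% of all UMIs. They held 76.4%, 80.1% and 86.2% of Sdpr UMIs and 48.4%, 64.7% and 60.04% of those of Vwf. For Gp1bb the shares were 85.5% in WT and 84.5% in DKO but 35.6% in KO. For Selp the shares were 6.03% in WT, 13.02% in KO and 12.1% in DKO, close to the share of all UMIs in WT and DKO and above it in KO. In KO, cluster 5 held 50.8% of Selp UMIs with 23.4% of all UMIs.

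The other KO source was the erythroid-like cluster, led by globin genes and Tspo2, with 987 KO, 3 WT and 2 DKO cells. It held 59.9% (58.1 to 61.7) of KO Gp1bb UMIs, 40.7% of Itga2b, 39.5% of Gp9 and 24.6% of Pf4, with 15.1% of all KO UMIs. In these cells Pf4 stood at 294 CPM, Itga2b at 110, Gp1bb at 109 and Gp9 at 44.3. Itgb3 stood at 5.37 CPM, Sdpr at 7.72, Vwf at 4.71 and Selp at 0.785. So 4 of the 8 genes were present at over 40 CPM and the other 4 at under 10. Nearly all cells of this cluster come from 1 library, so cell type and library cannot be told apart, and no ratio was formed.

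In KO neutrophil-like cells Pf4 stood at 17.0 CPM, Itga2b at 6.80, Gp9 at 1.88 and Gp1bb at 1.03. Itgb3 stood there at 2.85 CPM, Sdpr at 0.121 and Vwf at 0.324, and Selp, at 6.63, was higher than in the erythroid-like cells. The part of free RNA in these levels was not tested. After each cell was thinned to 5500 UMIs, 52.2% of the 987 erythroid-like cells had a Pf4 UMI (72.3% unthinned) and 40.02% a Gp1bb UMI. In WT B lineage-like cells, with 622 cells before thinning, 1.54% (0.708 to 2.91) had a Pf4 UMI and 0.172% a Gp1bb UMI. Median depths were 14524 UMIs in KO erythroid-like and 13161 in WT B lineage-like cells.

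**Figure D2:**
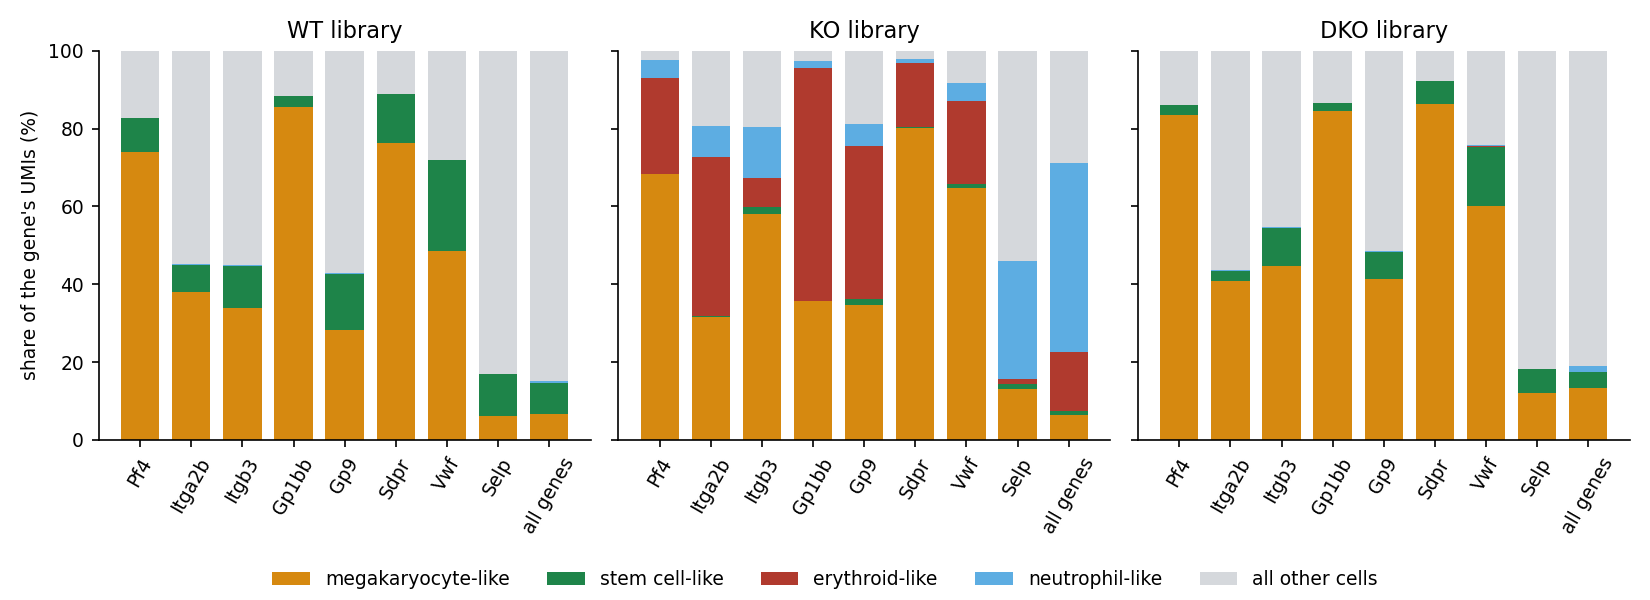
Share of each gene's UMIs (percent) that came from megakaryocyte-like, stem cell-like, erythroid-like, neutrophil-like and all other cells, in the WT, KO and DKO libraries, with the share of all genes as the last bar. In KO, erythroid-like cells hold 59.9% of Gp1bb UMIs, and in each library most Selp UMIs lie outside the megakaryocyte-like cells.

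The whole-library ratios also differed with the cells included. Without megakaryocyte-like cells, the KO/WT ratio of Gp1bb was 24.4. Without megakaryocyte-like, erythroid-like, neutrophil-like and B lineage-like cells together, the KO/WT ratio of Pf4 was 1.004, that of Gp1bb 3.10, that of Selp 2.39 and that of Itga2b 1.86. Itgb3 stood at 1.02, while Gp9 (0.831), Vwf (0.686) and Sdpr (0.357) were on the lower side, although their whole-library ratios were above 1. In the same remaining cells the DKO/WT ratio of Pf4 was 2.05, that of Itga2b 2.97 and that of Gp1bb 3.23, and the other members ran from 1.10 for Sdpr to 2.45 for Selp. Both settings were chosen after seeing the data. Summed over these cells, Pf4 was thus nearly equal in KO and WT and higher in DKO. The kinds of cells left differ between libraries, however. Of all cells of a library, cluster 5 makes up 30.4% in KO and 0.147% in WT. Lymphoid-primed-like cells make up 0.488% in KO and 18.2% in WT. The part of this cell mix in the ratios was not tested.

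Within megakaryocyte-like cells, 7 of the 8 genes passed the level filter, without Selp, and 5 of these were at least 1.5-fold higher in KO than in WT, with 0 lower. Of all genes tested there, 1.72% were higher and 2.67% lower. Pf4 stood at 543 CPM in WT (524 to 563) against 1887 in KO, with 983 in DKO. The ratio to WT was 3.47 for KO (3.34 to 3.62) and 1.81 for DKO (1.74 to 1.88). KO was the highest library and WT the lowest. The intervals of the 3 levels do not overlap, but they cover counting error and leave out the spread between cells. Over thinned cells of this class, the variance of Pf4 UMIs was 30.4 times the mean in WT, 58.7 times in KO and 21.9 times in DKO.

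For the fibrinogen receptor, Itga2b stood at 113 CPM in WT (104 to 122) against 197 in KO (187 to 208), with 192 in DKO (185 to 200). Itgb3 stood at 49.1 (43.5 to 55.2), 95.4 (88.1 to 103) and 63.2 (59.2 to 67.4). Itga2b was 1.75-fold and 1.70-fold higher in KO and DKO than in WT, and the DKO/KO ratio was 0.974 (0.912 to 1.04). For Itgb3 the ratios were 1.94 (1.68 to 2.25) and 1.29 (1.13 to 1.48). The mutants thus differed little in 1 subunit gene, while in the other DKO lay 1.51-fold below KO (1.36 to 1.67).

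For the von Willebrand factor receptor, Gp1bb stood at 64.4 CPM in WT (58.0 to 71.4) against 150 in KO (141 to 160), with 91.3 in DKO (86.5 to 96.3). Gp9 stood at 71.0 (64.2 to 78.3), 90.4 (83.3 to 97.9) and 128 (122 to 134). The order of the libraries therefore differed, with KO highest for Gp1bb and DKO highest for Gp9. The KO/WT ratio of Gp1bb was 2.33 (2.06 to 2.63), and Gp9 was 1.80-fold higher in DKO than in WT (1.62 to 2.01). Vwf, the ligand, stood at 18.9, 33.4 and 22.1 CPM with a KO/WT ratio of 1.77 (1.40 to 2.25). Its DKO/WT interval (0.938 to 1.47) includes 1.

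Sdpr stood at 70.8 CPM in WT (64.0 to 78.1) against 86.6 in KO (79.6 to 94.0), with 74.3 in DKO (70.0 to 78.9), the smallest spread of the group in these cells. Its KO/WT ratio was 1.22 (1.07 to 1.39) and its DKO/WT ratio 1.05 (0.935 to 1.18). Selp, at 6.71, 21.2 and 17.8 CPM, was below the filter. Its ratio was 3.16 in KO over WT (2.20 to 4.66) and 2.65 in DKO over WT (1.88 to 3.84), from 38 WT UMIs.

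Between DKO and WT, 3 of the 7 genes that passed were higher (Pf4, Itga2b and Gp9), where 2.79% of genes were higher and 0.791% lower. Between DKO and KO, 4 of 7 were lower (Pf4 1.92-fold, Gp1bb 1.64-fold, Itgb3 1.51-fold and Vwf 1.51-fold), where 1.45% of genes were lower and 6.07% higher. The median log2 ratio of the 7 genes was 0.82 for KO/WT, 0.50 for DKO/WT and -0.59 for DKO/KO, and that of all genes tested was -0.01, 0.09 and 0.10. With the platelet gene lists left out of clustering, 0 of 7 were lower in DKO than in KO, while the KO/WT ratio of Pf4 was 2.64. The KO/WT ratios of Pf4, Itga2b, Itgb3 and Gp1bb stayed at or above 1.5 in each of 10 alternatives for these cells. That of Vwf did so in 8 of 10, with a lowest value of 1.39, and Itgb3 and Vwf were lower in DKO than in KO by 1.5-fold in 4 of 10 each.

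Markers of other cells were read in the same class. Summed erythroid markers stood at 1190 CPM in WT against 744 in KO, with 1076 in DKO megakaryocyte-like cells, and the erythroid genes Tspo2 and Cldn13 were at 0 in WT. Summed neutrophil markers stood at 348, 499 and 407 CPM, and summed megakaryocyte markers, a list without the 8 genes, at 2684, 3116 and 2708. The part of these markers in the results was not tested. Median depth was 11495 UMIs per cell in WT against 13890.5 in KO, with 14402 in DKO, and thinned cells gave 2 genes lower in DKO than in KO.

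**Figure D3:**
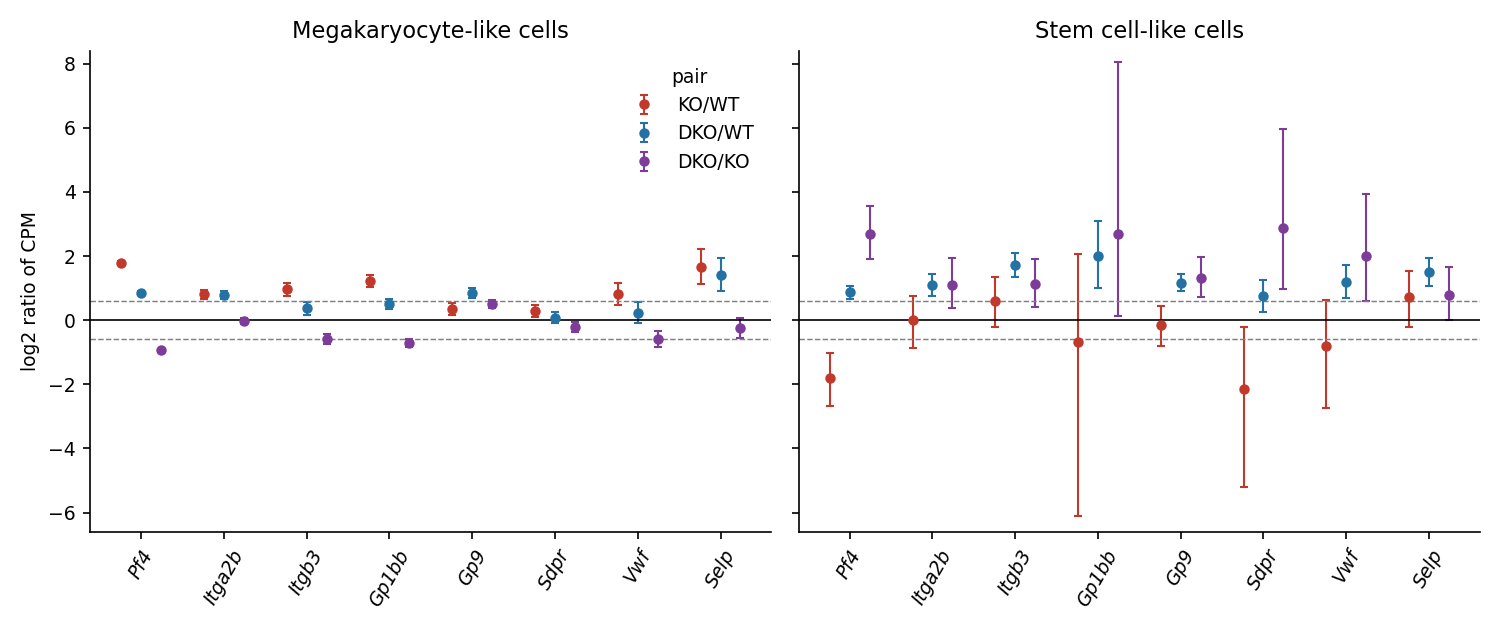
Log2 ratio of CPM for KO/WT, DKO/WT and DKO/KO in megakaryocyte-like and in stem cell-like cells, with 95% conditional binomial intervals; the solid line is a ratio of 1 and dashed lines are 1.5-fold. In megakaryocyte-like cells Pf4 is 3.47-fold higher in KO than in WT, and in stem cell-like cells the KO intervals are wide because KO counts are small.

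Pf4 differed among megakaryocyte-like cells as well as between libraries. In cells thinned to 5500 UMIs (442 WT, 444 KO and 982 DKO), 52.5% of WT (47.7 to 57.2), 53.6% of KO (48.8 to 58.3) and 68.0% of DKO cells (65.0 to 70.9) had a Pf4 UMI. Unthinned shares were 65.6%, 68.0% and 82.5%. The mean was 2.73 UMIs per cell in WT against 9.39 in KO, with 4.78 in DKO, yet the median was 1 in each. The share of cells with a Pf4 UMI was thus close in WT and KO, while the mean was not.

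The difference lay among cells with many Pf4 UMIs. Cells with 10 or more made up 6.33% of WT (4.25 to 9.03), 20.5% of KO (16.8 to 24.6) and 13.03% of DKO cells (10.99 to 15.3). They held 57.8%, 89.9% and 68.1% of the Pf4 UMIs of the class. Within this range, of 28 WT, 91 KO and 128 DKO cells, the mean was 24.9 UMIs in WT against 41.2 in KO, with 24.98 in DKO. The WT mean includes 1 cell with 146 Pf4 UMIs, and no interval was made for these means. KO thus had both the largest share of such cells and the highest mean within them. This is a range on a continuous count, not a cell type, and 12 WT, 21 KO and 48 DKO cells had 8 to 11 UMIs.

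Cells in that range also had more UMIs of other members than cells without Pf4. Vwf averaged 0.643 UMIs against 0.0524 in WT, 0.396 against 0.0583 in KO and 0.406 against 0.0478 in DKO. Gp1bb averaged 1.04 against 0.200 in WT and 1.82 against 0.417 in KO. Sdpr averaged 1.43 against 0.300 in WT. Gp9 differed least in WT, at 0.464 against 0.395. Median depth before thinning was 15153 against 12472 UMIs in WT, 13425 against 13593.5 in KO and 17246 against 14227 in DKO. The removal of cells with the highest doublet scores, 2.49% to 3.61% of this class, left the KO/WT ratio of Pf4 at 3.44.

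Several members were often detected in 1 cell. At 5500 UMIs, 15.8% of WT (12.6 to 19.6), 34.2% of KO (29.8 to 38.9) and 30.1% of DKO cells (27.3 to 33.1) of this class had UMIs of 4 or more of the 8 genes. Cells with none made up 14.0%, 7.88% and 4.99%. In KO, 73.1% of cells with a Pf4 UMI also had Itga2b, against 50% of cells without Pf4. In WT these shares were 53.0% and 35.7%, and in DKO 64.7% and 55.1%. Receptor partners differed less in WT and DKO. The share with Gp9 in cells with and without Gp1bb was 30.6% and 31.4% in WT. It was 41.1% and 31.4% in KO, and 54.3% and 46.2% in DKO. The share with Itgb3 in cells with and without Itga2b was 22.7% and 19.7% in WT. It was 37.5% and 25.1% in KO, and 28.3% and 24.4% in DKO.

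**Figure D4:**
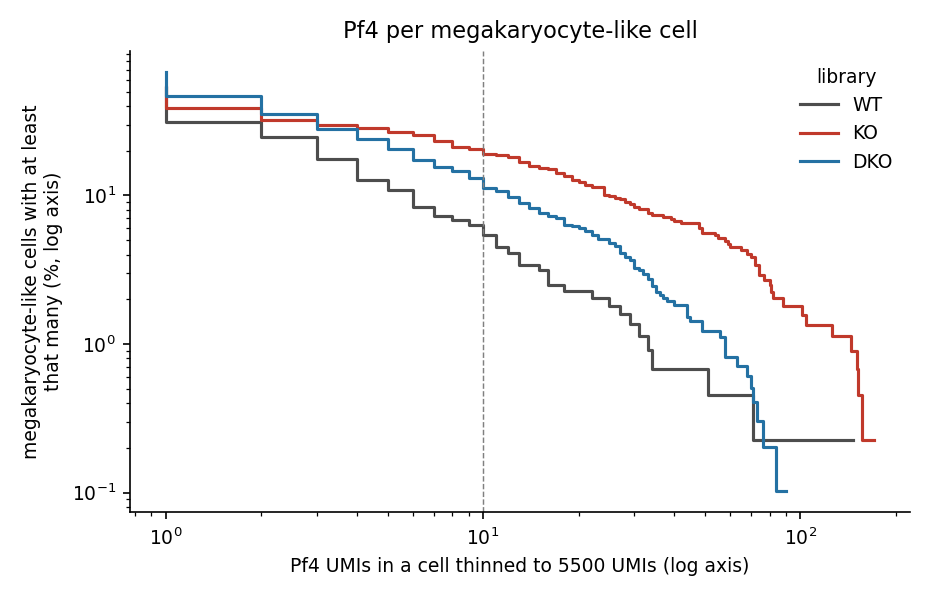
Share of megakaryocyte-like cells (percent, log axis) with at least a given number of Pf4 UMIs (log axis) after thinning each cell to 5500 UMIs, for the WT, KO and DKO libraries. At 1 UMI the WT and KO lines start together at 52.5% and 53.6%, and at 10 UMIs, the dashed line, they stand at 6.33% and 20.5%.

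In stem cell-like cells 7 of the 8 genes were lower than in megakaryocyte-like cells of the same library, with Selp the exception in WT and DKO. Pf4 stood at 53.6 CPM in WT (48.2 to 59.4) against 15.3 in KO (8.39 to 25.7), with 98.2 in DKO (89.4 to 108). Itga2b stood at 17.6, 17.5 and 37.8 CPM, and Itgb3 at 13.03, 19.7 and 42.9. Every one of the 8 genes was highest in DKO in this clustering. With clusters made from WT cells alone, Sdpr was not, at a DKO/WT ratio of 0.839. All genes tested in these cells also leaned that way, with median log2 ratios of 0.11 for DKO/WT and 0.13 for DKO/KO. The share of all genes that were highest in DKO was not counted. The KO values rest on 86 cells and 1 to 25 UMIs per gene. Cluster 5, which holds 30.4% of KO cells and has some stem cell markers, had Pf4 at 10.6 CPM, Itga2b at 21.0 and Selp at 23.0.

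Gp9, the receptor subunit, stood at 30.5 CPM in WT against 27.4 in KO, with 68.4 in DKO. Gp1bb, its partner in the complex, stood at 1.78, 1.10 and 7.12. Vwf stood at 7.70, 4.38 and 17.7, Selp at 10.1, 16.4 and 28.5, and Sdpr at 9.62, 2.19 and 16.2. Between DKO and WT, 4 of 8 genes passed the filter and 4 were higher (Itgb3 3.30-fold, 2.55 to 4.29, Gp9 2.24-fold, Itga2b 2.14-fold and Pf4 1.83-fold), where 7.37% of genes were higher. Of the genes below the filter, Gp1bb had a ratio of 4.01 (2.02 to 8.52) and Selp one of 2.83 (2.10 to 3.85).

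Between KO and WT, 2 genes passed. Pf4 was 3.49-fold lower in KO (2.05 to 6.45), where 6.37% of genes were lower and 4.83% higher, and the Gp9 ratio was 0.899 (0.568 to 1.36). Between DKO and KO, 5 passed and 5 were higher, from 1.73-fold for Selp (1.01 to 3.18) to 6.40-fold for Pf4 (3.77 to 11.8), where 10.5% of genes were higher. In 4 of 5 other clusterings KO had 14 to 22 stem cell-like cells and gave no value. With clusters made from WT cells alone it had 183, and the KO/WT ratio of Pf4 was 0.373. Summed basophil-mast markers of stem cell-like cells stood at 62.6 CPM in WT against 493 in KO, with 56.8 in DKO. Neutrophil markers stood at 827, 1300 and 705 CPM. Stem cell markers stood at 6315, 9954 and 5579 CPM, and megakaryocyte markers at 1427, 1116 and 1495. What part this marker mix has in the ratios was not tested.

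At 5500 UMIs, 17.5% of WT (14.9 to 20.4), 9.30% of KO (4.10 to 17.5) and 29.9% of DKO stem cell-like cells (25.6 to 34.5) had a Pf4 UMI, and 23.9%, 14.0% and 44.8% unthinned. In WT lymphoid-primed-like cells the thinned share was 2.29% (1.55 to 3.26), at a median depth of 7783 UMIs. Median depths were 7559 UMIs in WT against 10163.5 in KO, with 10079 in DKO stem cell-like cells. Cells with 4 or more of the 8 genes were 0 of 764 in WT, with an exact upper bound of 0.482%, and 16 of 418 (3.83%) in DKO.

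Within WT, the step from stem cell-like to megakaryocyte-like cells was unequal. Gp1bb was 36.3-fold higher in megakaryocyte-like cells (20.5 to 70.8), Pf4 10.1-fold (9.08 to 11.3), Sdpr 7.36-fold, Itga2b 6.40-fold and Itgb3 3.77-fold. Vwf was 2.45-fold and Gp9 2.33-fold higher. Selp had a ratio of 0.666 (0.436 to 1.01), the only 1 of the 8 below 1, with an interval that includes 1.

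Partner genes also differed in their proportions between classes. Per Itgb3 UMI there were 2.30 Itga2b UMIs in WT megakaryocyte-like cells (1.99 to 2.66), 2.07 in KO and 3.04 in DKO. In stem cell-like cells there were 1.35, 0.889 and 0.879. In KO erythroid-like cells there were 20.5 (16.4 to 25.9), and in cluster 16 18.2 in KO and 51.4 in DKO (21.7 to 160). These are ratios of 3′ tags, so the gene lengths do not enter, but capture can differ between the genes. Itga2b was thus found with little Itgb3 in the clusters with erythroid markers.

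**Figure D5:**
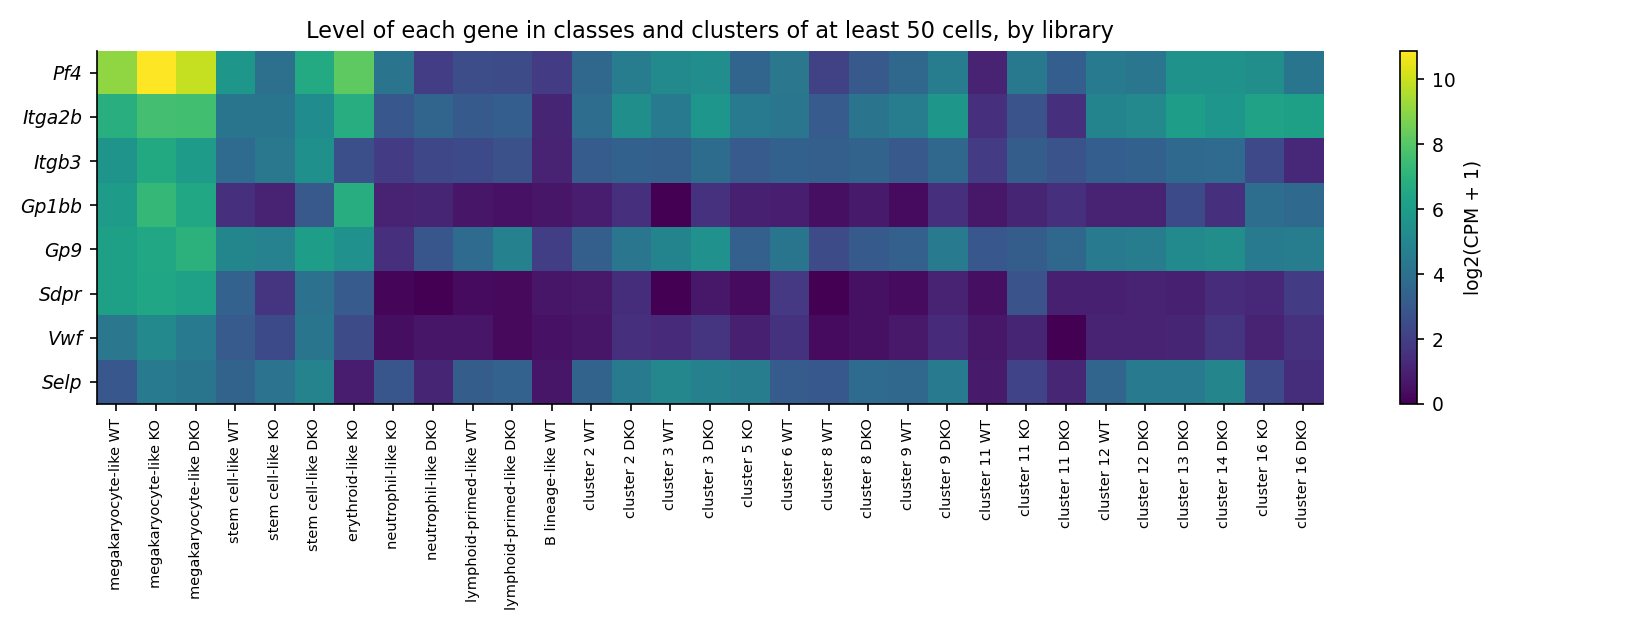
Level of each gene as log2(CPM + 1), shown as colour, in the 31 combinations of class or cluster and library that hold at least 50 cells. The 3 megakaryocyte-like columns are brightest for Pf4, KO erythroid-like cells are bright for Pf4, Itga2b and Gp1bb but not for Itgb3, and Selp is spread over many clusters.

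The ratio of DKO to WT also varied from cluster to cluster. There were 9 clusters with at least 50 cells in both libraries, the megakaryocyte-like and stem cell-like ones included. A ratio was read where the gene had 20 or more UMIs over both libraries together. For each gene, 0 of the intervals of these ratios lay wholly below 1. Over 9 clusters, Gp9 ran from 1.15 to 2.29, Itga2b from 1.02 to 3.07 and Itgb3 from 1.07 to 3.30. Pf4 ran from 0.859 in cluster 12 (0.498 to 1.40) to 7.97 in cluster 11 (3.66 to 19.2), the latter from 9 WT UMIs. Over 8 clusters, Selp ran from 0.827 in cluster 3 (0.538 to 1.34) to 2.83 in stem cell-like cells. Vwf ran from 1.17 to 3.22 over 5 clusters and Sdpr from 1.05 to 2.51 over 3. The highest ratios of both were in cluster 2, from 5 Vwf and 6 Sdpr UMIs in WT. Gp1bb was lowest, at 1.42, in megakaryocyte-like cells, and WT had 0 of its UMIs in cluster 3. Clusters of 1 library are not replicates.

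Across the 31 combinations of cluster and library, Pearson correlations of member levels are given as a description, since the points share libraries and depth. Sdpr and Vwf had r = 0.94, Pf4 and Vwf 0.88 and Pf4 and Gp1bb 0.87. Selp had r = 0.34 with Pf4 and -0.06 with Gp1bb. The genes most like the summed members were Nt5c3 (r = 0.91), Fermt3 (0.90), which encodes kindlin-3, a protein needed for integrin activation, Unc119 (0.89), the thrombin receptor gene F2r (0.89) and Mlf2 (0.87). F2r and Unc119 are also among the top genes of the megakaryocyte-like cluster. In those cells F2r stood at 69.6 CPM in WT against 107 in KO, with 92.5 in DKO.

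Other platelet genes, taken from lists, were also read in megakaryocyte-like cells. The lists were chosen with earlier results of these data known, and genes are named from them by the size of their ratio to WT. Of all genes tested in these cells, 1.72% were higher and 2.67% lower in KO than in WT. In DKO against WT, 2.79% were higher and 0.791% lower. These shares stand beside the counts of every list below. Among platelet receptors and adhesion genes, 0 of 9 tested were 1.5-fold higher or lower in KO than in WT and 1 of 9 was higher in DKO. That gene was Gp5, a further subunit of the von Willebrand factor receptor, at 37.4 CPM in WT against 48.5 in KO, with 65.8 in DKO (1.76-fold over WT, 1.51 to 2.05). The tetraspanin gene Cd9 stood at 209.6 CPM in WT and 295 in KO, a ratio of 1.41 (1.31 to 1.52). Itga6 (KO/WT ratio 1.32) and Treml1 (1.26) were, like Gp5, on the higher side in KO but within 1.5-fold.

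Among granule and secreted protein genes, 1 of 9 was higher in KO than in WT (Timp3, an inhibitor of metalloproteinases, 1.79-fold, 1.37 to 2.34) and 1 of 8 was lower in DKO (Mmrn1, multimerin, 1.83-fold). Among signalling genes, 2 of 21 were higher in KO, F2r (1.53-fold) and the adaptor gene Lat (1.52-fold), and 2 of 20 in DKO, the thromboxane receptor gene Tbxa2r (1.79-fold) and F2rl3 (1.55-fold), a further thrombin receptor gene.

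Among megakaryocyte transcription factor genes, 2 of 18 were lower in KO than in WT and 0 higher. Lyl1 was 2.29-fold lower and Erg 1.83-fold lower. In DKO, 1 of 18 was lower (Lyl1, 1.51-fold). Runx1, Gata2, Etv6 and Klf1 lay within 1.5-fold of WT in both mutants, Gata2 and Etv6 in KO close to the threshold at 1.498-fold and 1.49-fold lower. Among cytoskeleton genes of platelet formation, 1 of 10 was higher in each mutant, the alpha-tubulin gene Tuba8 (1.59-fold in KO, 1.88-fold in DKO), which also leads this cluster. Between DKO and KO, 6.07% of all genes tested were higher and 1.45% lower. Of the lists, 0 of 9 receptor genes were higher or lower, and 1 of 10 granule genes was higher and 2 lower. Of signalling genes, 1 of 21 was higher and 1 lower, and of transcription factor genes 3 of 17 were higher and 1 lower. Of cytoskeleton genes, 2 of 10 were higher. Median log2 KO/WT ratios of the 5 lists ran from -0.18 for transcription factors to 0.14 for signalling, against 0.82 for the 7 members that passed.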

How the data were processed

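LSK cells of 3 libraries (WT, KO and DKO) were measured by droplet 3′ single-cell RNA sequencing. Values are UMI counts per gene and cell in a table the authors deposited. The tools bcl2fastq, Cell Ranger and Seurat and the build mm10 are named per the submitters' processing notes, and their roles and versions are not given in the sources used here. A deposited normalized table was not used. The 8 genes and all lists were chosen with earlier results of these data known.

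Counts were summed per library and per class and scaled to CPM. Levels have exact Poisson intervals, ratios conditional binomial intervals and shares Clopper-Pearson intervals, all at 95%, covering counting error only. Total depth puts the limit of 3 counts at 0.0273 to 0.0350 CPM in whole libraries. No test between genotypes was possible with 1 library each.

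Cells were clustered (scanpy 1.11.5, leidenalg 0.10.2, 2000 variable genes without the 8 members, 30 principal components, 20 neighbours, resolution 1) into 18 clusters. A cluster was named when its top 15 genes held 4 or more markers of 1 class and at least 3 more than of any other, a rule set after the clusters were seen. Shares of cells use cells thinned to 5500 UMIs, which left out 683 WT, 0 KO and 178 DKO cells. Scrublet called 0.0489% to 0.894% of cells as doublets and was not usable in WT and DKO, so no cells were removed. An alternative removed the 194 to 536 cells per library with the highest scores.

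Named are the 8 members, up to 4 genes per list with the largest ratio to WT in megakaryocyte-like cells at a mean of at least 20 CPM, and the 5 genes most correlated with the summed members. Gene positions are from GENCODE on GRCm38. Alternatives were TMM (edgeR 4.0.16) and median-of-ratios scaling, other level and fold minimums, equal cell weights, thinning, doublet removal, other clusterings and, chosen after seeing the data, left-out classes. The counting and clustering steps were tested on simulated data. At the KO/WT depths of all cells, the rule called 25 of 25 genes set 2-fold higher and 0 of 5035 unchanged genes among 14721. These counts were Poisson draws, with changes set only in genes above the level minimum. Spread beyond counting error was absent from them, so they cannot show how the rule does with differences between libraries. All 250 simulated megakaryocyte-like and all 250 stem cell-like cells were named right, as were 250 of 500 neutrophil-like cells, and 0 of 250 lymphoid-primed-like cells were named at all. Simulated cells were drawn from the mean profile of their cluster at the same depth. Spread within clusters and differences between libraries were thus absent, which makes naming easier than in the data. Some genes that these rules select are not reported here.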

Additional observations from a re-analysis of the deposited data

Results flagged for a closer look

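Between megakaryocyte-like and stem cell-like cells, the ratios of several members lay on opposite sides of 1. The 7 given here were picked because the counting intervals of both classes exclude 1. The share of all genes on opposite sides in this way was not counted. Whether the ratios differ between the classes was not tested, since each genotype has 1 library. For KO over WT, Pf4 had a ratio of 0.286 in stem cell-like and 3.47 in megakaryocyte-like cells. Sdpr had 0.228 (0.0270 to 0.857) against 1.22, from 2 KO UMIs in the stem cell-like cells.

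For DKO over KO, Pf4 had 6.40 in stem cell-like cells against 0.521 in megakaryocyte-like cells, and Itgb3 2.18 against 0.663. Gp1bb had 6.50 against 0.608, from 1 KO UMI, Sdpr 7.38 against 0.858, from 2, and Vwf 4.04 against 0.663, from 4. Every stem cell-like ratio in this group rests on the same 86 KO cells. With the platelet lists left out of clustering, the megakaryocyte-like ratios of Sdpr lay on the other side of 1 (KO/WT 0.955, DKO/KO 1.11).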

How the results depend on the processing

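No paired analysis was possible because each genotype has 1 library and no replicate numbers, and leaving out a replicate was not possible either. Among counts of members past 1.5-fold, 172 values lay within 1.5 times of the count in the text and 34 did not. Counts of 0 that stayed at 0 are among the 172. The ratios moved more: the whole-library KO/WT ratio of Pf4 lay outside its counting interval in 8 of 8 alternatives. It ran from 1.004 to 6.52 there and was at least 1.5 in 7. In whole libraries the KO/WT count of higher members was 1 with a 50 CPM minimum, and 1 without megakaryocyte-like, erythroid-like, neutrophil-like and B lineage-like cells. The DKO/WT count was 7 at 5 CPM and 1 at 50 CPM. The DKO/KO count of higher members was 5 at 5 CPM, 0 without megakaryocyte-like cells, and 1 under TMM, median-of-ratios, 50 CPM, a 2-fold threshold, equal cell weights, thinning, or without erythroid-like, neutrophil-like and B lineage-like cells. The count of lower members was 0 at 50 CPM, at 2-fold and without the 4 classes, and 2 under equal weights, thinning and without the 3 classes. In megakaryocyte-like cells a 2-fold threshold gave 2 higher for KO/WT, 0 for DKO/WT and 0 lower for DKO/KO. Lower DKO/KO members were 2 under equal weights, thinning and clusters from WT cells alone, 1 at resolution 1.5, and 0, with 1 higher, without the platelet lists in clustering. In stem cell-like cells KO/WT gave 2 higher and 3 lower at 5 CPM and 0 lower at 50 CPM, DKO/WT 7 higher at 5 CPM and 1 at 50 CPM, and DKO/KO 1 higher at 50 CPM. Of ratios that were at least 1.5-fold in either direction, 7 moved to the other side of 1. Without erythroid-like, neutrophil-like and B lineage-like cells, DKO/KO ratios were 0.810 for Itgb3, 0.724 for Sdpr and 0.993 for Selp in whole libraries, and without megakaryocyte-like cells as well, 1.04 for Gp1bb. With clusters from WT cells alone, stem cell-like ratios were 0.980 for Itgb3 and 1.42 for Gp1bb in KO/WT and 0.839 for Sdpr in DKO/WT. Smaller ratios crossed 1 as well, among them the DKO/KO ratio of Pf4 in whole libraries, 2.04 without the 4 classes, and in megakaryocyte-like cells without the platelet lists in clustering, those of Sdpr (KO/WT 0.955, DKO/KO 1.11) and Itga2b (DKO/KO 1.10). Without megakaryocyte-like cells the KO/WT ratio of Itgb3 in whole libraries was 0.706. Without erythroid-like, neutrophil-like and B lineage-like cells that of Vwf for DKO/KO was 0.721. Another level or fold minimum changes which genes are counted by construction, and for the other settings the cause was not tested. With the other 4 clusterings KO stem cell-like cells numbered 14 to 22 and gave no ratio. Low counts limit Gp1bb, Sdpr and Vwf in KO stem cell-like cells.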
